A study of Homo sapiens with 30 samples.

Results

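Protease-activated receptors are G protein-coupled receptors of the cell surface. A protease cuts the outer end of the receptor, and the new end folds back and switches the same molecule on, so that each receptor can be used once before it is taken up and replaced. Airway epithelium is known to carry them, and proteases of pollen, mites and moulds are known to be able to cut them. The family has 4 genes, and all 4 were followed here: F2R (the thrombin receptor, PAR1), F2RL1 (PAR2, cut by trypsin-like proteases), F2RL2 (PAR3, mainly a helper of thrombin signalling) and F2RL3 (PAR4, cut by thrombin and cathepsin G). Members were all probes that the array files name for these genes, 5 probes of 4 genes among 58201 probes for 43966 gene names. The rule rests on gene names and not on measured values.

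The cells were BEAS-2B, 1 immortalized line of human bronchial epithelium, grown on Transwell membranes and kept with the upper side open to air for 24 h. Cultures then had either whole birch pollen, blown as a dry cloud into a sedimentation chamber, or a mock exposure (air). The dose of 10 mg is the load of the whole chamber, of which only a part settled on the cells. RNA was taken after 10 min, 55 min, 2h25min, 6h50min or 24 h. Each of the 10 combinations of exposure and time had 3 one-colour arrays, 30 in all. The study's methods describe exposures repeated on separate days, with a mock control in each run. The labels do not say that a replicate number marks a run. All results concern messenger RNA, and the protease cut itself leaves no trace on such an array.

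Values are log2 intensities relative to the 75th percentile of the same array, so that 0 is the brightness of that percentile and a difference of 1 is a doubling. Probes differ in how brightly they bind, and therefore levels are compared within a probe only. A probe was tested if it was well above background, by the scanner software's mark, on all 3 arrays of at least 1 group, which 32100 probes were. A probe was called between pollen and air at a Benjamini-Hochberg adjusted p under 0.05 over all tested probes with at least a 1.1-fold change, and between times at the adjusted p alone (limma throughout).

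The share of probes well above background lay between 44.7% and 59.3% per array, and 0 spots were saturated. The epithelial markers KRT8, KRT18, KRT19, KRT7, EPCAM and CDH1 were well above background on 30 of 30 arrays, as were KRT5, KRT14 and the mesenchymal genes VIM, CDH2, COL1A1, PDGFRB and FN1, and the basal cell gene TP63 was so on 21. Of genes of ciliated cells, FOXJ1 was so on 8 arrays and TPPP3 on 1. Of secretory genes, SCGB1A1 was so on 29, MUC5AC on 27 and MUC5B on 0. Of endothelial genes, CDH5 was so on 30, VWF on 28 of the 29 arrays that carry it and PECAM1 on 0. The leukocyte genes PTPRC, ITGAM and CD3E were so on 30, 28 and 17 arrays, and the platelet genes GP9, ITGA2B and PF4 on 30, 25 and 22. Among these ciliated, secretory, endothelial, leukocyte and platelet genes, the highest log2 value was -2.87, for GP9. All 6 arrays of 6h50min lay on a slide of their own with a scan of their own. They were also the dimmest set, with 75th percentiles between 578 and 1151 intensity units against 1044 to 2111 on the other 24 arrays. The array of pollen replicate 1 at 55 min was of another design, which carries all 5 receptor probes.

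F2R was measured by a pair of probes that lie far apart in the gene, and their sequences are shown because their values later part. In hg19 the upstream probe (ENST00000505600) covers chr5:76012549-76012608 on the plus strand. The downstream probe (NM_001992) covers chr5:76030669-76030728, 18.12 kb further along the same strand. F2RL1 (NM_005242) is probed at chr5:76130985-76131044 on the plus strand and F2RL2 (NM_004101) at chr5:75911499-75911558 on the minus strand, so that the probes of 3 receptor genes lie within 219.5 kb. F2RL3 (ENST00000248076) is probed at chr19:17002771-17002830 on the plus strand. The files give no exon or UTR for these positions. Each probe has 60 bases. The last 30 are printed 5′ to 3′ below, with the letters AATAAA in capitals, the most common signal for cutting and polyadenylating a transcript.
F2R upstream: tccaccAATAAAcgtttcgatctttaaaat
F2R downstream: caaatgttttgctcaatagattgctcaaat
F2RL1: tgcaacatatttaagagatacttgatgcca
F2RL2: gaaggaagacattagtgattagacaggagg
F2RL3: ctgtgagacAATAAActctcattgttttaa
The letters AATAAA stood in the upstream F2R probe and in the F2RL3 probe, and in 7.85% of the 58201 probes. Their reverse complement, TTTATT, stood within the 60 bases of the downstream F2R probe and in 3.60% of all probes. A match of letters is a description of the probe and does not show that a transcript ends there.

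Probes of 3 of the 4 receptors gave a signal above background throughout. The probes of F2R, F2RL1 and F2RL3 were well above background on 30 of 30 arrays. The F2RL2 probe was so on 4 of 30, namely 1 air and 2 pollen arrays at 10 min and 1 pollen array at 2h25min, and it did not enter the tests. Its log2 values lay between -9.11 and -6.07, or 2.95 to 26.6 intensity units, and are bounds rather than levels. The mark alone does not show that a dim probe saw its own transcript. PTPRC, GP9 and CDH5, genes of other cell types, also had it on 30 arrays, with log2 values up to -3.62, -2.87 and -3.30. The upstream F2R probe (-4.63 to -3.46) and the F2RL3 probe (-4.76 to -2.42) were about as dim.

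**Figure D1:**
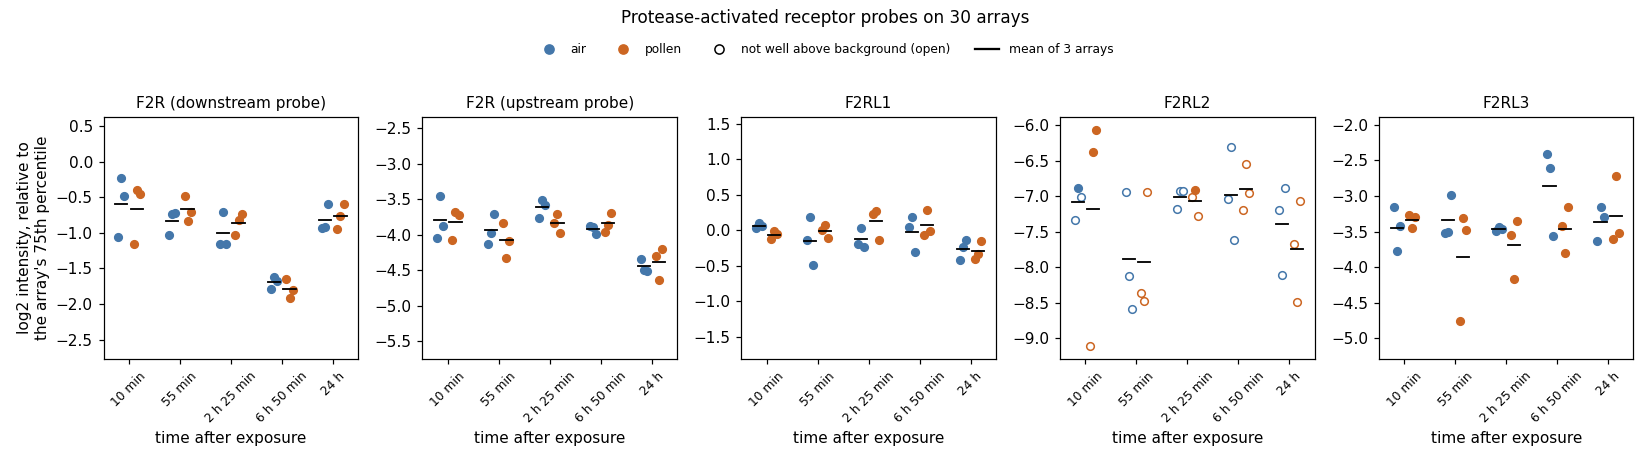
Log2 intensity relative to the 75th percentile of the array (vertical axis, each panel spanning the same range of log2 units) for the 5 receptor probes on 30 arrays, by time and exposure, with 1 point per array and a bar at the mean of 3. Air and pollen points lie among each other at nearly every time, the downstream F2R probe is lowest at 6h50min, and F2RL2 is open, that is not well above background, on 26 arrays.

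The first question was whether pollen changed the level of the receptors' RNA. No change was detectable for F2R, F2RL1 or F2RL3, and F2RL2 was too dim to be tested. In RNA of a whole culture, fewer cells with a transcript and less of it per cell cannot be told apart. Of the 4 tested receptor probes 0 were called at any of the 5 times by limma, and 0 of the 20 differences had an unadjusted p under 0.05. The smallest adjusted p was 0.772. Few probes of the whole array were called in this fit either: 0% at 10 min, 0.00312% at 55 min, 0.0343% at 2h25min, 0.0436% at 6h50min and 0.00312% at 24 h. The share of all probes with an unadjusted p under 0.05 (limma) ran from 1.83% at 10 min to 7.44% at 6h50min. With the same cut-offs the study itself reported far more genes at 6h50min. The limma F-test of pollen at any time called 0 receptor probes and 0.0156% of all probes. The test that the pollen effect differed between neighbouring times called 0 of 16 receptor values, with a smallest adjusted p of 0.945. That test called 0.00312% of all probes at the step from 2h25min to 6h50min and 0% at the other 3 steps.

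F2RL1, the receptor of trypsin-like proteases, varied least. At 10 min it was at 0.04, 0.10 and 0.05 in air and at -0.13, -0.01 and -0.05 in pollen, the single case of the 20 in which the arrays of both exposures did not overlap. Such a separation was found in 5.81% of all tested probes at that time, and in 8.67%, 6.97%, 11.7% and 8.8% at the later times. At 55 min the share is of 23921 tested probes, those with a value on every array of that time. The difference was -0.12 on the log2 scale (95% interval -0.44 to 0.19, adjusted p = 1.00, limma).

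At 2h25min F2RL1 had log2 values of -0.19, 0.04 and -0.23 in air and of 0.24, 0.27 and -0.13 in pollen. Pollen replicate 3 lay within the air values. The mean difference was 0.25, or 1.19-fold, with a 95% interval from 0.96-fold to 1.48-fold (adjusted p = 1.00, limma). It was higher in pollen in 3 of 3 same-numbered pairs, and with the replicate number as a block the adjusted p was 0.731. At the other 3 times its difference lay between -0.03 and 0.14. Over these 3 times the 95% intervals ran from 0.786-fold to 1.37-fold.

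F2R gave differences between -0.22 and 0.16 over both probes and all 5 times. For the downstream probe the largest was at 55 min, with -1.04, -0.73 and -0.73 in air and -0.48, -0.83 and -0.70 in pollen. The groups overlapped, and the mean difference was 0.16 (95% interval -0.25 to 0.57, adjusted p = 0.981, limma). For the upstream probe the largest was at 2h25min, with -3.76, -3.51 and -3.58 in air and -3.83, -3.70 and -3.98 in pollen. Pollen was lower in 3 of 3 same-numbered pairs, by a mean of 0.22 with a 95% interval of the difference from -0.55 to 0.10 (adjusted p = 1.00, limma).

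F2RL3, a receptor best known from platelets, was the least precise of the tested probes, with a standard error of 0.33 for each difference against 0.15 to 0.20 for the others. Its intensities were low, between 43.9 and 237 units. At 6h50min the air arrays were at -2.42, -2.61 and -3.57 and the pollen arrays at -3.42, -3.81 and -3.15. Air replicates 1 and 2 were the highest of all 30 arrays, while air replicate 3 lay among the pollen arrays. The mean difference was -0.60 (95% interval -1.28 to 0.09, unadjusted p = 0.0857, adjusted p = 0.772, limma). Around this probe the spots of the air arrays ran lower than on other arrays, by a running median of -0.17, -0.15 and -0.13 against -0.06, -0.07 and -0.01 in pollen. The direction of this local shift was opposite to that of the difference, in which air was higher, and its part was not tested. At 55 min the values were -3.51, -3.50 and -2.98 in air and -4.76, -3.32 and -3.48 in pollen. The lowest was the array of the other design, and the mean difference of -0.52 (adjusted p = 0.920, limma) became -0.07 without it.

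**Figure D2:**
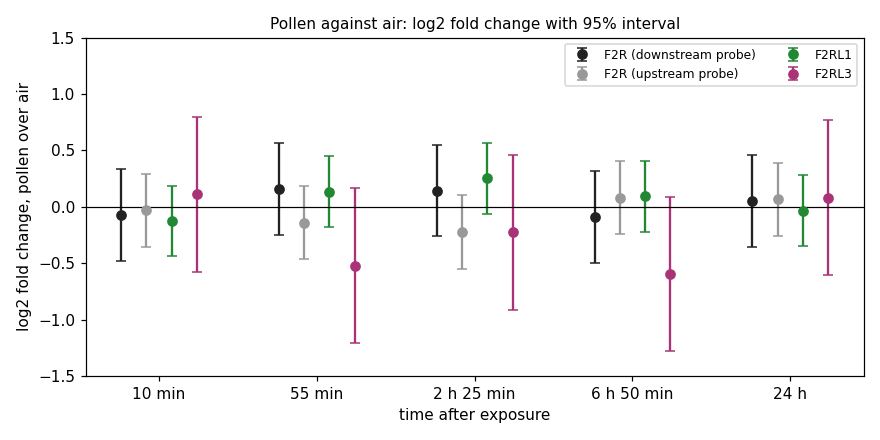
Log2 fold change of pollen over air (vertical axis) at each of 5 times for the 4 tested receptor probes, with 95% intervals from limma. All 20 intervals include 0, and those of F2RL3 are the widest.

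The second question was how the receptors' RNA moved over the day, in air and in pollen. Most of the array moved: the F-test over the times called 61.9% of all probes in air and 59.9% in pollen, and 2 of the 4 receptor probes in each, both of F2R. F2RL1 (adjusted p = 0.331 in air and 0.123 in pollen) and F2RL3 (0.419 and 0.439) did not pass the limma F-test. The steps from 10 min to 55 min and from 55 min to 2h25min called 0 receptor probes in either exposure, with 0.187% and 0.0156% of all probes called in air and 0.841% and 0.202% in pollen.

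The downstream F2R probe was lowest at 6h50min in both exposures. Its air values went from -1.15, -0.71 and -1.15 at 2h25min to -1.78, -1.63 and -1.68 at 6h50min, and were -0.94, -0.92 and -0.60 at 24 h. Its pollen values were -1.03, -0.82 and -0.73, then -1.65, -1.91 and -1.80, then -0.95, -0.76 and -0.59. The 6 arrays of 6h50min, between -1.91 and -1.63, lay below all other 24 arrays, which were between -1.15 and -0.23. The share of all probes with such a separation was not counted, so it is no trait particular to this probe.

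Between 2h25min and 6h50min this probe fell by 0.69 in air (adjusted p = 0.0106) and by 0.93 in pollen (adjusted p = 0.0014, limma), a step at which 32.4% and 31.0% of all probes were called. It rose from 6h50min to 24 h, by 0.88 in air (adjusted p = 0.00135) and 1.02 in pollen (adjusted p = 0.000436, limma), with 40.5% and 36.2% of all probes called. The median of all probes moved the same way, by -0.15 and -0.11 at the first step and by 0.14 and 0.12 at the second. Since the 6 arrays share a slide and scan with no other time, the time and the slide cannot be told apart. Without them the probe no longer passed the F-test over the remaining 4 times (adjusted p = 0.446 in air and 0.825 in pollen, limma).

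The upstream F2R probe took another course and was lowest at 24 h. In air it was at -3.76, -3.51 and -3.58 at 2h25min, at -3.88, -3.90 and -3.99 at 6h50min and at -4.34, -4.49 and -4.51 at 24 h. In pollen it was at -3.83, -3.70 and -3.98, then at -3.96, -3.86 and -3.69, then at -4.31, -4.63 and -4.20. At 24 h the arrays of each exposure lay below all those of 6h50min and 2h25min in the same exposure. How many of all probes did so was not counted.

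From 6h50min to 24 h the upstream probe fell by 0.52 in air (adjusted p = 0.011) and by 0.54 in pollen (adjusted p = 0.0102, limma), while the downstream probe of the same gene rose over the same step. Between 2h25min and 6h50min the upstream probe did not pass the test (-0.31 in air, adjusted p = 0.138, and -0.00 in pollen, adjusted p = 0.995). With the 6h50min arrays left out, the step from 2h25min to 24 h could be set directly, and 1 array of each exposure at 2h25min shared a slide with all those of 24 h. Over it the upstream probe fell by 0.83 in air (adjusted p = 0.00122) and by 0.54 in pollen (adjusted p = 0.0265), with 27.0% and 22.3% of all probes called. The downstream probe differed by 0.18 and 0.09 (adjusted p = 0.589 and 0.814, limma). Over that same step F2RL1 differed by -0.13 in air (adjusted p = 0.559) and fell by 0.42 in pollen (adjusted p = 0.0423, limma). Whether the exposures differed over this step was not tested, and the step was chosen after seeing the data. In the same fit F2RL1 did not pass the F-test over the remaining times (adjusted p = 0.308 in air and 0.127 in pollen, limma).

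**Figure D3:**
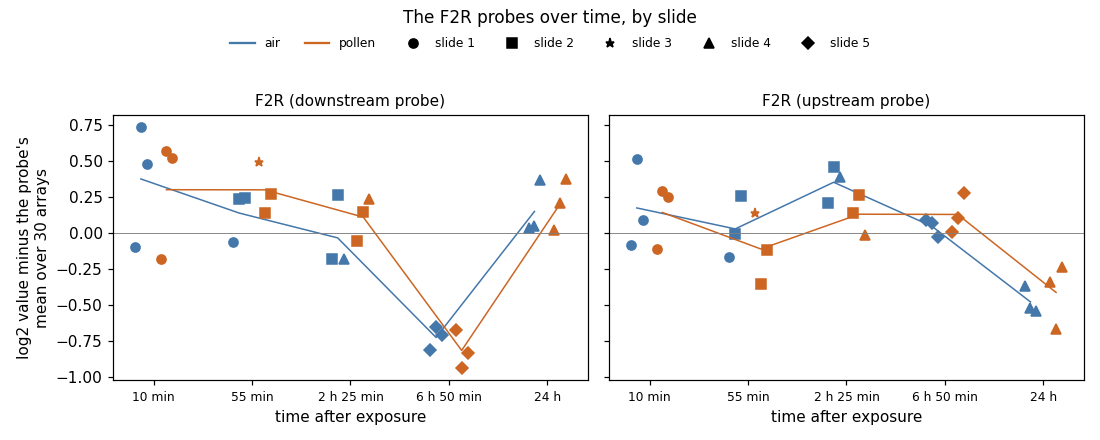
The F2R probes over 5 times, as log2 value minus the probe's mean over 30 arrays (vertical axis), with 1 point per array, lines through the group means and the slide given by the marker. The downstream probe drops at 6h50min, where all 6 arrays share slide 5, and is back at 24 h, while the upstream probe is lowest at 24 h.

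The fall of the downstream F2R probe between 2h25min and 6h50min in air depended on the setting. It was not called without air replicate 2 of 2h25min (-0.54, adjusted p = 0.0786), with the slide as a random block (-0.69, 0.0776), with each array's own percentile (-0.57, 0.117), with normexp (-0.48, 0.26) or in the authors' value table (-0.49, 0.13). In pollen this fall was not called with normexp (-0.78, adjusted p = 0.0665). The upstream probe's falls from 6h50min to 24 h in air and pollen were not called with the slide block (-0.50 and -0.52, adjusted p = 0.0962 and 0.0961) or with each array's own percentile (-0.56 and -0.58, 0.0527 and 0.0536). In pollen that fall was also not called without pollen replicate 2 of 24 h (-0.42, adjusted p = 0.0717). Under quantile normalization the 6 called steps of the F2R probes kept their sign, and 0 of them were called (adjusted p = 0.0714 to 0.356, limma throughout).

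The genes with the most similar course over the 10 group means were listed for each tested receptor probe, out of 9470 gene names, as a description without a test, since all points share slides. For the downstream F2R probe they were CCNA2 (cyclin A2, which drives cells through the cell cycle), with a Pearson r of 0.989, ZKSCAN1 (0.987), SFSWAP (0.986), ZCCHC17 (0.981) and LINC00504 (0.981), and 207 names were above 0.9. For the upstream probe they were PLEKHH3 (0.971), SGPP2 (0.962), EVI5L (0.955), LINC00467 (0.942) and EXOC3L4 (0.941), so that the lists of the F2R probes share no name. For F2RL1 they were MAMLD1 (0.935), ABCA5 (0.924), UBP1 (0.921), PKP2 (0.919) and PARVA (0.916). For F2RL3 only RRH (0.925) was above 0.9, followed by CABP5 (0.851), SEL1L (0.830), KRTAP10-1 (0.823) and C11orf42 (0.821). F2RL1 and F2RL3 had not passed the F-test over time. The group means of F2RL1 spanned 0.42, less than the 0.5 asked of the genes compared with it. The highest of 9470 correlations over 10 points can be high without a shared course, so the names show no shared regulation.

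Around the receptors stand the proteases that cut them, their cofactors and inhibitors, the G proteins they signal through, the proteins that switch them off, and the genes that their activation is known to induce in epithelium. Between pollen and air, 2 genes of these 6 lists were called in the main fit, which has no replicate block. Both were higher in pollen, and both were called at 2h25min: CCN2 and F3. CCN2 was also called at 55 min. The lists were chosen with earlier results of these data known, so their counts are descriptions.

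Of 29 proteases known to cut these receptors, 14 were tested and 0 were called in either direction. Among those not tested were F2 (thrombin), F7, PLG (plasminogen) and PRSS1 (trypsin). Their median log2 fold change lay between -0.29 at 55 min and 0.16 at 24 h. The 3 with the smallest p for pollen at any time were KLK4, F10 and CTSG. All 3 were dim. F10, which activates thrombin, differed by -1.23 at 55 min (adjusted p = 0.920, limma), where it was well above background on 3 air arrays and 1 pollen array. CTSG, the neutrophil protease cathepsin G, was well above background on 0 air arrays and 1 pollen array at 10 min, and KLK4, a kallikrein, on 0 of the 6 arrays at 6h50min, the times at which each differed most, so that no fold is given.

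Of 4 cofactors, 3 were tested. F3 encodes tissue factor, the receptor of factor VII that starts clotting and leads to cleavage of these receptors. At 2h25min it was at 0.87, 0.99 and 1.2 in air and at 1.65, 2.18 and 1.54 in pollen, with no overlap, as in 6.97% of all tested probes. It rose by 0.77 (SE 0.14, adjusted p = 0.0462, limma), higher in 3 of 3 same-numbered pairs. The call was lost when any of 5 of the 6 arrays was left out (0.58 to 0.86, adjusted p = 0.0554 to 0.362) and with the replicate number as a block (adjusted p = 0.105). It was also lost under the other scalings, in the authors' value table and with array weights. The same held without the filter on dim probes and without the 6h50min arrays. In the limma F-test of pollen at any time F3 had an adjusted p of 0.161. THBD, which encodes thrombomodulin, the receptor that turns thrombin towards protein C, differed by 0.65 at 2h25min (adjusted p = 0.550), and PROCR by -0.01 (adjusted p = 1.00, limma).

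Of 17 protease inhibitors 10 were tested and 0 were called. TFPI2, a secreted inhibitor of serine proteases, differed by 0.52 at 2h25min (adjusted p = 1.00) and by 0.62 at 6h50min (adjusted p = 0.340), while SPINT2 and TFPI lay between -0.22 and 0.27 at every time. All 15 genes of G proteins and their effectors were tested and 0 were called. GNA11, a G protein alpha subunit of the kind that activates phospholipase C, differed by -0.53 at 6h50min (adjusted p = 0.0892, limma), followed by PLCB3 with 0.35 at 10 min (adjusted p = 1.00) and GNA13 with -0.28 at 6h50min (adjusted p = 0.447). All 18 genes of desensitisation and traffic (receptor kinases, arrestins, ubiquitin and sorting proteins) were tested and 0 were called, with list medians between -0.09 and 0.03. GRK5 (0.31 at 24 h, adjusted p = 1.00) and GRK3 (0.29, adjusted p = 1.00), which phosphorylate activated receptors, had the smallest p, and USP8, which removes ubiquitin, differed by -0.33 at 6h50min (adjusted p = 0.486).

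The list that stood highest was that of 18 genes known to be induced after receptor activation, which other stimuli induce as well. Its median log2 fold change was 0.02 at 10 min, 0.79 at 55 min, 0.82 at 2h25min, 0.31 at 6h50min and 0.06 at 24 h. Over all 24503 tested gene names the median lay between -0.03 and 0.00. At 55 min 18 of 18 were above 0 and at 2h25min 17 of 18, against 11979 and 10174 of all tested gene names. At each of these times 1 of the 18 was called, and 9 had an unadjusted p under 0.05, against 1272 and 732 of all gene names. The list was chosen with earlier results of these data known and holds genes that the study had reported as up in them. Its counts and medians therefore describe the list and test nothing. The 55 min median was 1.06 without the array of the other design and 0.41, with 13 of 18 above 0, without air replicate 1. At 55 min other scalings moved the median of all probes too: it was -0.53 under quantile normalization, where the list had a median of 0.11 and 11 of 18 above 0. With each array's own percentile these were -0.37, 0.38 and 13, with normexp -0.27, 0.23 and 13, and in the authors' value table -0.24, 0.31 and 14. At 2h25min the list median lay between 0.75 and 0.85 under these settings, with 17 of 18 above 0.

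CCN2, which encodes a secreted growth factor bound to matrix, was that gene. At 55 min it was at 1.82, 2.06 and 2.12 in air and at 2.96, 2.79 and 2.68 in pollen. At 2h25min it was at 0.78, 0.77 and 0.83 in air and at 2.33, 2.30 and 2.07 in pollen. The groups did not overlap at either time, as in 8.67% and 6.97% of the tested probes with a value on every array of that time. It rose by 0.81 at 55 min (SE 0.12, adjusted p = 0.0281) and by 1.44 at 2h25min (SE 0.12, adjusted p = 1.11e-06, limma). The call at 55 min was lost when any array but air replicate 3 was left out (0.72 to 0.87, adjusted p = 0.0537 to 0.573). At 24 h it was -0.40 (adjusted p = 0.795).

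Of the other members of that list none was called in the main fit, which has no block. With array weights 12 of the 18 were called at 55 min, a setting that also called the most probes of the whole array then. The study itself reported the members IL6, IL1B and ICAM1 as up in pollen. Its PCR on RNA of the array samples also gave higher levels for these genes. A missing call in this fit therefore does not show that a gene was unchanged. With the replicate number as a block, 5 of the 18 were called at 2h25min, where same-numbered samples deviated together: CCN2, IL1B (adjusted p = 0.00957), CCN1 (0.0169), AREG (0.0284) and IL6 (0.0436, limma). The count of all probes called with this block is not given singly, only its range over all alternatives in the last section. The 5 calls therefore only describe the list. Without the block, the cytokine gene IL1B differed by 0.78 at 55 min (adjusted p = 0.920), by 1.19 at 2h25min (adjusted p = 0.0727) and by 0.67 at 6h50min (adjusted p = 0.366, limma). CCN1, a relative of CCN2, differed by 0.93 at 55 min (adjusted p = 0.492) and by 0.95 at 2h25min (adjusted p = 0.109).

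**Figure D4:**
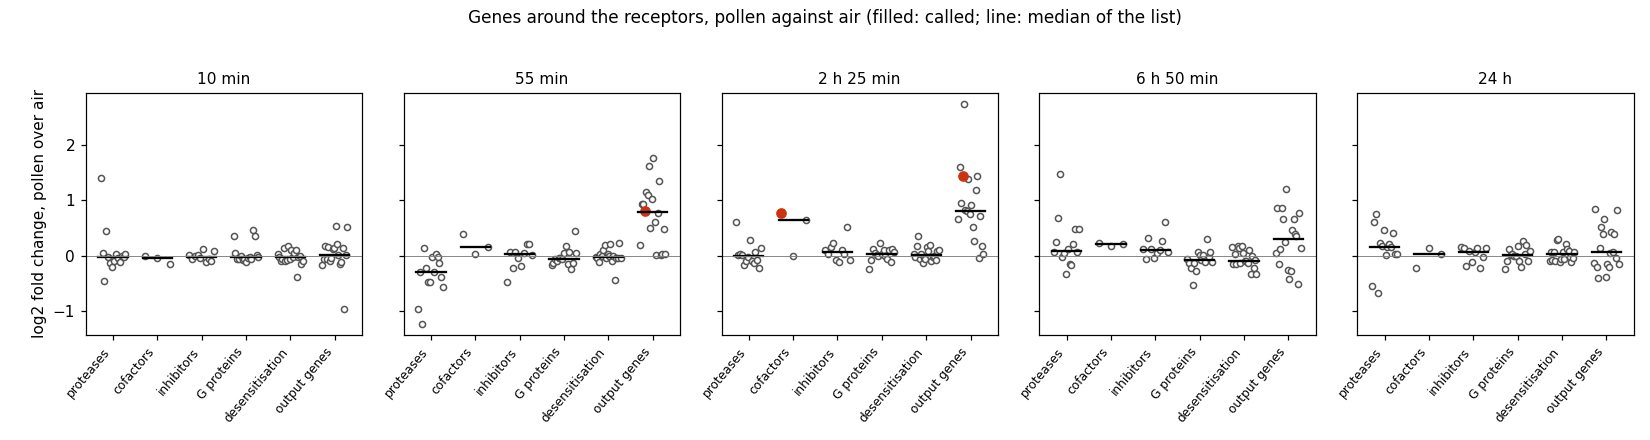
Log2 fold change of pollen over air (vertical axis) at each of 5 times for the tested genes of the 6 lists, with 1 circle per gene, the called genes filled and a line at the median of the list. The line of the induced genes (output genes) stands at 0.79 and 0.82 at 55 min and 2h25min, and filled points are CCN2 at both times and F3 among the cofactors at 2h25min.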

How the data were processed

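RNA of 30 samples was hybridised to one-colour Agilent arrays. Per the file headers, the authors' scanner software (Agilent Feature Extraction 11.0.1.1, hg19 probe positions) gave each spot an intensity that was background-subtracted and detrended within the array. The deposited value table holds log2 values that the authors normalized between arrays with limma; its background correction and scaling are not given in the sources used here. It served as an alternative. In it 6 columns, all of 24 h, held the values of another array of their own group. Their Spearman correlation was 0.99999 with that array and 0.943 to 0.960 with the array of their own name. Spots marked uneven or as outliers were dropped, spots of a probe averaged, and the 75th percentile of the 33873 probes that both designs carry subtracted per array on the log2 scale. With R 4.3.3 and limma 3.58.1, 10 group means were fitted to all arrays (residual df 20), with Benjamini-Hochberg adjustment over 32100 tested probes; the same fit was tested on simulated data. Of several probes of a gene the brightest stood for it. Columns without a sample numbered 0. Named were all receptor probes, list genes called, the 3 per list with the smallest F-test p, and 5 similar genes per probe. The members and lists were chosen with earlier results of these data known. Same-numbered samples deviated together with every correlation above 0.1 at 10 min, 2h25min (0.377 to 0.504) and 24 h, and not at 55 min and 6h50min. Alternatives covered scaling, background, the value table, filters, array weights, the replicate and slide blocks, dim areas and left-out arrays. The number of arrays limits the precision.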

Additional observations from a re-analysis of the deposited data

How the results depend on the processing

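For pollen against air, the count of receptor probes called was 0 at each of the 5 times under every alternative run. Over 404 alternative values of their differences 0 had an adjusted p under 0.05, the smallest being 0.0536 (upstream F2R probe at 55 min, array weights), and 35 had the other sign. At 55 min, where 1 array was of the other design, the median difference of all probes was -0.24 to -0.53 under the other scalings and the authors' value table. Counts of all probes called ran from 0 to 1 at 10 min, 0 to 1455 at 55 min, 0 to 44 at 2h25min, 0 to 786 at 6h50min and 0 to 298 at 24 h, the highest of 55 min, 6h50min and 24 h with array weights. The genes of the 6 lists called at 55 min (1) were 15 with array weights, 0 to 4 with 1 array left out, and 0 under the other scalings, the value table, no filter on dim probes, the replicate block, the slide block, only the arrays of that time, only the slide with 2 arrays of each group, the 6h50min arrays left out, and dim areas left out with the replicate block. At 2h25min (2) they were 5 with the replicate block, 4 with it and dim areas left out, 0 with only the arrays of that time or only the shared slide, and 1 under the other scalings, the value table, no filter, array weights, and the 6h50min arrays left out, and 1 to 3 with 1 array left out. At 6h50min (0) they were 3 with array weights and 1 with the replicate block. The receptor probes that passed the F-test over time in air (2) were 1 with each array's own percentile, 0 with quantile normalization, 1 with normexp, 1 without the 6h50min arrays and 4 with array weights. In pollen (2) they were 1 with quantile normalization, 1 with the slide block, 1 without the 6h50min arrays, and 1 to 2 with 1 array left out. No difference called in the main setting changed sign. The cause of these shifts was not tested. Leaving out the 6h50min arrays, and dim areas together with the block, were chosen after seeing the data. Time steps could not be fitted with the replicate block, since a number pairs samples within a time only. The alternatives that keep 2 or 3 arrays a group in a fit of their own leave 2 or 4 residual degrees of freedom, so their counts of 0 say nothing about stability.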
